A study of Mus musculus with 6 samples.

Results

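The genes described here encode the nuclear subunits of respiratory complexes I, III and IV, cytochrome c and the ATP synthase of the mitochondrial inner membrane. They were chosen by symbol from the table of gene counts. All Nduf, Uqcr, Cox4 to Cox8 and Atp5 subunit symbols of the set patterns were taken, with Cyc1 and Cycs, and assembly factors of the Ndufaf series and symbols ending in -ps were left out. Of 83 symbols that matched, Ndufab1-ps was left out, and 82 of the 16022 symbols of the table remained. They comprised 40 genes of complex I, 10 of complex III with cytochrome c, 15 of complex IV and 17 of the ATP synthase. Ndufa4, which carries a complex I symbol, was counted with complex IV, of which its protein is now known to be a subunit. The subunits encoded by mitochondrial DNA and Cox8b were not analysed here, and Cox4i1 and Cox4i2 fall outside the symbol patterns.

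RNA was sequenced from LSK cells of mouse bone marrow, the fraction that lacks lineage markers and carries high Sca-1 together with c-kit, and which holds hematopoietic stem cells and early progenitors. There were 3 libraries of HDAC6 knockout (KO) and 3 of wild-type (WT) genotype. HDAC6 is a mainly cytoplasmic deacetylase, and the series asks how it bears on the enzyme IDH1 and on these cells. The labels give neither the strain, age or sex of the mice nor the knockout allele. Nothing in them ties each sample to an animal of its own, so the p-values rest on the spread between these samples, which may be technical.

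The respiratory chain passes electrons from NADH through complex I, and from succinate through complex II, to coenzyme Q, then through complex III and cytochrome c to complex IV, where oxygen is reduced. Complexes I, III and IV pump protons across the inner membrane, and the ATP synthase lets them return through a rotating c-ring that drives ATP formation in its F1 head. Hematopoietic stem cells are known to keep this machinery at low activity, and to draw on it more as they enter differentiation.

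Total counts per library ran from 25993971 to 28743672. Levels are given as CPM, counts scaled to the library's total, after TMM normalization between libraries, and levels of different genes are compared only by the deposited FPKM values, which are per length. Over all genes, KO replicate 3 was closer to the 3 WT libraries (chi-square over degrees of freedom of 25.8 to 35.5) than to KO replicates 1 and 2 (58.4 and 53.8). Hdac6 had 9.62, 7.69 and 11.28 CPM in KO libraries, against 67.97, 58.24 and 54.32 CPM in WT libraries. Its log2 fold change of -2.66 (SE 0.19) was the only one of 12875 genes, or 0.00777%, to pass the quasi-likelihood test of edgeR at a Benjamini-Hochberg adjusted p of 0.05 (adjusted p = 0.000594). Kit, the receptor c-kit of the gate, had 725, 817 and 1082 CPM in KO libraries and 1323, 1367 and 1127 CPM in WT libraries, and Ly6a, which encodes Sca-1, had 82.1 to 119 CPM in KO libraries and 60.3 to 68.7 CPM in WT libraries. All 9 of 9 LSK markers were detected, with a summed level of 3633, 3471 and 4645 CPM in KO libraries 1, 2 and 3 and of 4527 to 5107 CPM in WT libraries. Summed markers of neutrophils (7 of 7 detected) ran from 17.4 to 33.8 CPM in KO and from 42.4 to 106 CPM in WT libraries, and those of monocytes and macrophages (5 of 5) from 152 to 666 CPM in KO and from 142 to 322 CPM in WT libraries. T and NK markers (8 of 8) summed to 263 to 341 CPM in KO and 264 to 318 CPM in WT libraries, mostly Nkg7. The list's 5 tested genes had a median log2 fold change of 2.29: Ncr1 had 1.62 to 14.1 CPM in KO and 0.65 to 2.54 CPM in WT libraries, and Gzma and Prf1 stood at 3.16 and 3.77. Cd3g held 5, 7 and 13 counts in KO libraries and 0 in all WT libraries. Cd3d held 11 counts in KO replicate 2 alone, and Cd3e 4 counts in WT replicate 3 alone. B markers (5 of 6 in the table) summed to 64.7 to 87.3 CPM in KO and 54.7 to 79.2 CPM in WT libraries. Erythroid markers (7 of 7) summed to 13.0 to 27.1 CPM in KO and 20.7 to 41.6 CPM in WT libraries, and megakaryocyte markers (4 of 4) to 160 to 233 CPM in KO and 216 to 240 CPM in WT libraries. The part of these cell types in the results below was not tested.

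No respiratory chain or ATP synthase gene passed the edgeR test, and the smallest adjusted p among them was 0.298. All but 1 of the ATP synthase head, ring and stalk subunits lay above WT. So did the core subunits of complex I. The 4 largest positive log2 fold changes, a choice made by value, were those of Cyc1, Cycs, Uqcrfs1 and Cox5a. None of these log2 fold changes exceeded 0.60. By contrast, 25 of the 43 genes with a length under 0.5 kb, as implied by counts and FPKM, lay below WT. Of the 82 genes, 79 passed the filter on low counts; Ndufs6b, Cox7a1 and Cox7b2 did not. Among those 79, 49 lay above and 30 below WT. Their log2 fold changes had a median of 0.07, beside 49.5% above WT and a median of 0.00 over all 12875 genes tested. An unadjusted p under 0.05 was reached by 7 higher genes, among them Cyc1, Cycs, Uqcrfs1, Cox5a, Atp5pb and Atp5b, and by 1 lower gene, Ndufa7, beside 7.24% of all genes higher and 6.15% lower. That was 10.1% of the subunit genes, beside 13.4% of all genes in both directions. The 3 KO values and the 3 WT values did not overlap for 7 genes that were higher in KO libraries and 4 that were lower, or 13.9% of the subunit genes. The same held for 8.86% of all genes in the higher and 9.7% in the lower direction, 18.6% together, and 3 libraries against 3 cannot give an exact two-sided permutation p below 0.1. By DESeq2, Cyc1 was the 1 subunit gene called higher, at a log2 fold change of 0.60 and an adjusted p of 0.0214, and 0 were called lower, beside 0.897% of 13373 genes higher and 0.456% lower.

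The 3 KO libraries did not lie together. The 82 genes summed to 15120, 13716 and 11707 CPM in KO replicates 1, 2 and 3, against 12354, 11757 and 12027 CPM in the WT replicates. Replicate 1 of the KO group thus lay above every WT library and replicate 3 below every one, and the spread between KO libraries was larger than the difference between the group means of 13514 ± 1715 CPM in KO and 12046 ± 299 CPM in WT libraries (SD, n = 3 each). In summed FPKM the group means were closer, at 19402 ± 1895 in KO and 19192 ± 970 in WT libraries. Gene by gene, KO replicate 1 was the highest KO library for 73 of the 79 genes and replicate 3 the lowest for 73, whereas over all genes these shares were 36.6% and 36.7%. Replicate 3 was the lowest of all 6 libraries for 41 of the 79 genes, or 51.9%, beside 10.7% of all genes. The median deviation of the 79 genes from their own means over the 6 libraries was 0.21, 0.06 and -0.17 on the log2 scale in KO replicates 1, 2 and 3, and 0.05, -0.07 and -0.07 in WT replicates 1, 2 and 3. The direction of the median therefore rested on single libraries: without KO replicate 1 it was -0.02, with 36 genes above WT, and without KO replicate 3 it was 0.17, with 61 above. It rested on the scaling as well, since with library size alone as the scale the median was -0.01 and 37 genes lay above WT, while the median of all genes moved to -0.078. In bulk RNA, fewer cells of a type and less RNA per cell cannot be told apart.

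**Figure D1:**
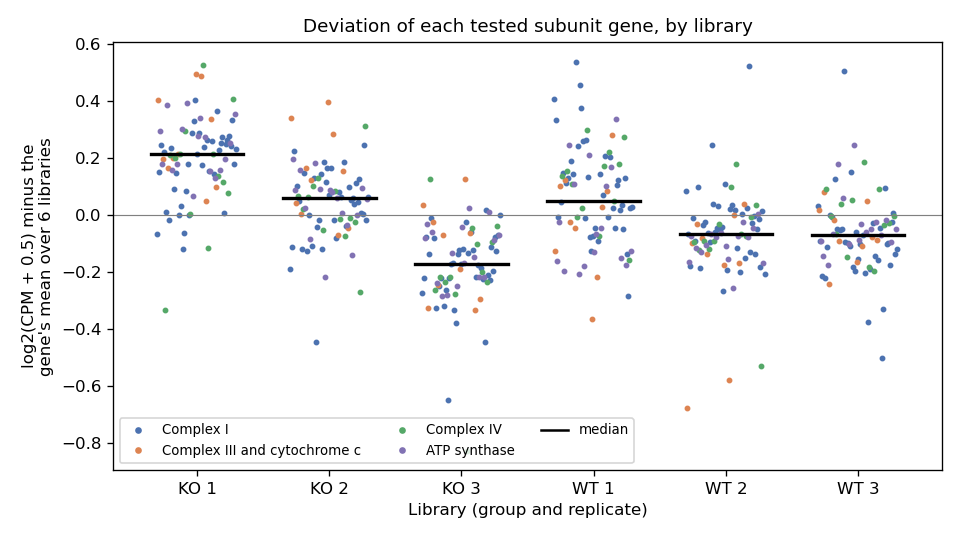
Deviation of each of the 79 tested subunit genes, as log2(CPM + 0.5) minus the gene's mean over 6 libraries, in the 3 KO libraries (left) and the 3 WT libraries (right), with the median as a bar and each point 1 gene coloured by complex. The medians are 0.21, 0.06 and -0.17 in KO replicates 1, 2 and 3, so KO replicate 1 lies above and KO replicate 3 below all WT medians, which run from -0.07 to 0.05.

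Complex I takes electrons from NADH, and 7 of its nuclear subunits form the core that holds the flavin and iron-sulfur clusters. All 7 core genes lay above WT, at a median of 0.20 on the log2 scale, and none passed the edgeR test. The median of all 39 tested complex I genes was 0.06, with 25 above WT, and it was -0.04 without KO replicate 1 and -0.02 with library size alone. Ndufv1, which binds NADH and the flavin, had 265.6, 244.0 and 200.3 CPM in KO libraries, against 210.8, 190.1 and 202.6 CPM in WT libraries, with KO replicate 3 within the WT range and the other two KO libraries above it (log2 fold change 0.23, SE 0.12, edgeR adjusted p = 0.413). Its partner Ndufv2 had a log2 fold change of 0.22 (SE 0.13), and Ndufs1, the largest iron-sulfur subunit, one of 0.20 (SE 0.11), with edgeR adjusted p-values of 0.469 and 0.448. Without KO replicate 1, Ndufv1, Ndufv2 and Ndufs1 stood at 0.14, 0.10 and 0.13. Ndufs7, Ndufs8 and Ndufs3, which belong to the arm that leads electrons to coenzyme Q, stood at 0.12, 0.11 and 0.06, with SEs of 0.12 to 0.13. The direction of Ndufs3 depended on the scaling, at -0.02 with library size alone or with FPKM values.

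Among the 30 accessory subunits of complex I, which surround the core and are needed for its assembly and stability, 18 lay above WT and 12 below, and the median was 0.05. Ndufa7 had 59.3, 54.4 and 51.3 CPM in KO libraries, against 82.6, 66.0 and 63.5 CPM in WT libraries, and the groups did not overlap. Its log2 fold change was -0.36 (SE 0.14, edgeR adjusted p = 0.333), and it was -0.23 without WT replicate 1, the highest library. Ndufc1, a small membrane-arm subunit, had 27.5, 25.2 and 21.7 CPM in KO libraries and 33.0, 28.1 and 30.5 CPM in WT libraries, again without overlap. Ndufv3, attached to the NADH-oxidizing tip, had 56.3, 52.4 and 53.8 CPM in KO libraries and 61.5, 61.0 and 56.9 CPM in WT libraries. All KO libraries lay below all WT libraries for both genes, but the log2 fold changes were -0.30 (SE 0.16) and -0.14 (SE 0.12), with edgeR adjusted p-values of 0.43 and 0.604. On the other side, Ndufab1, the mitochondrial acyl carrier protein, had 165.9, 140.4 and 114.9 CPM in KO libraries and 114.5, 104.0 and 120.2 CPM in WT libraries. Ndufb5, a membrane-arm subunit, had 102.7, 96.7 and 74.5 CPM in KO libraries and 66.8, 71.7 and 81.9 CPM in WT libraries. Both genes overlapped through KO replicate 3, and both had a log2 fold change of 0.31, with SEs of 0.14 and 0.15 and edgeR adjusted p-values of 0.374 and 0.381. Without KO replicate 1 they stood at 0.18 and 0.22.

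By FPKM, the level of the 39 tested complex I genes spanned a wide range. Ndufb8 was the highest, with 366.9 ± 37.9 FPKM in KO and 347.9 ± 42.1 FPKM in WT libraries (SD, n = 3 each). Ndufa11, at 23.7 ± 4.03 FPKM in KO and 24.1 ± 2.53 FPKM in WT libraries, was the lowest apart from Ndufb4b and Ndufb4c, genes with symbols of further copies of Ndufb4. Ndufb4b held only 12, 7 and 4 counts in KO libraries and 25, 20 and 25 counts in WT libraries, which did not overlap. Its log2 fold change of -1.59 had an SE of 0.77 (edgeR adjusted p = 0.392). The sources used here do not tell how reads were divided between near-identical copies, and the values of Ndufb4, Ndufb4b and Ndufb4c are uncertain. Ndufs6b held 1 count in KO replicate 1 and 0 in the other 5 libraries, below the limit of 3 counts that a count of 0 allows.

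Complex III passes electrons from coenzyme Q to cytochrome c, the small carrier that also starts the caspase cascade when released into the cytosol. Its nuclear electron-carrying subunits, cytochrome c itself and complex IV subunit Cox5a held the 4 largest positive log2 fold changes of all 79 genes. Cyc1, the heme-bearing cytochrome c1, had 314.3, 273.0 and 244.4 CPM in KO libraries, against 192.6, 149.7 and 207.4 CPM in WT libraries. All KO libraries lay above all WT libraries, with WT replicate 2 the lowest, and the log2 fold change was 0.60 (SE 0.14, edgeR adjusted p = 0.298). Leaving out any 1 library gave 0.47 to 0.70. Uqcrfs1, the Rieske iron-sulfur protein, had 203.4, 194.3 and 157.4 CPM in KO libraries, against 140.7, 95.8 and 155.3 CPM in WT libraries. The groups did not overlap, but KO replicate 3 and WT replicate 3 were nearly equal. Its log2 fold change was 0.50 (SE 0.18, edgeR adjusted p = 0.31) and 0.32 without WT replicate 2. Cycs, the cytochrome c of somatic cells, had 405.3, 378.1 and 251.6 CPM in KO libraries, against 222.7, 254.3 and 256.0 CPM in WT libraries. Replicates 1 and 2 of the KO group lay above every WT library and replicate 3 within the WT range, for a log2 fold change of 0.50 (SE 0.16, edgeR adjusted p = 0.307). Without KO replicate 3, Cycs was the 1 subunit gene past the edgeR threshold, at 0.68 and an adjusted p of 0.0412. In that setting 44 of 13125 genes passed it in all, against 1 in the full comparison.

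The promoter of Cycs is shown because it holds motifs known from respiratory chain genes and its gene is one of the 4 with the largest positive values. In RefSeq (GRCm38.p6) 68 of the 82 genes had a promoter, taken from 250 bases before the start to 50 after. Motifs were searched on either strand as the letters GCGCATGC for the core of the NRF1 site, CCGGAAG for the ETS site, AAGATGGC for the YY1 site and CCAAT for the CCAAT box. The window printed runs to 30 bases after the start, and the capitals mark an NRF1 core on the reverse strand, which begins 60 bases before the start, and a CCAAT box 31 bases before it.
Cycs promoter, chr6:50566540-50566819, minus strand: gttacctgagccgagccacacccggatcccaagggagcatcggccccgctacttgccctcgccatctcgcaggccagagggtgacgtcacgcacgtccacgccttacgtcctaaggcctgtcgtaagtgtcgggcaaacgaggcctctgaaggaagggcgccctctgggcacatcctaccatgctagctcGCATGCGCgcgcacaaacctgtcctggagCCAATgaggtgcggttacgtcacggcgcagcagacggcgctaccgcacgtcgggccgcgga
The NRF1 core was present in a promoter of 10 of 68 subunit genes (14.7%), beside 3.05% of all 27025 genes with a promoter. The ETS core was present in 15 (22.1%), beside 9.93%, the YY1 core in 10 (14.7%), beside 3.19%, and the CCAAT box in 29 (42.6%), beside 41.1%. The median log2 fold change of the subunit genes was 0.06 with and 0.06 without an NRF1 core, -0.04 with and 0.07 without an ETS core, 0.11 with and 0.05 without a YY1 core, and -0.01 with and 0.07 without a CCAAT box. A match of letters is a description and not a bound site. The 14 genes without an entry included Atp5a1, Atp5mpl, Cox6a2, Cox6c, Cyc1, Ndufa2, Ndufb4c, Ndufb9, Ndufs1, Ndufs6b, Uqcrb, Uqcrc2 and Uqcrq.

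The other 7 subunits of complex III carry no electrons. Of these, 4 lay above and 3 below WT, with log2 fold changes between -0.16 and 0.18 and a median of 0.09. Uqcrc1 and Uqcrc2 form the large matrix-facing part. Uqcrc1 was the highest gene of the complex by FPKM, at 431.4 ± 57.8 FPKM in KO and 426.0 ± 5.33 FPKM in WT libraries (SD, n = 3 each). Uqcrc2 had 301.9, 283.2 and 248.0 CPM in KO libraries, against 252.3, 236.5 and 244.3 CPM in WT libraries, so that KO replicate 3 lay within the WT range (log2 fold change 0.18, SE 0.10, edgeR adjusted p = 0.454). Uqcrq, the lowest of the complex at 48.4 ± 9.77 FPKM in KO and 46.7 ± 4.18 FPKM in WT libraries, stood at 0.13 (SE 0.17), and at -0.02 without KO replicate 1. Uqcr11 and Uqcr10, small membrane subunits, and Uqcrh, the hinge protein that binds cytochrome c1, stood at -0.16, -0.04 and -0.05, with SEs of 0.15, 0.15 and 0.10. In FPKM, the small Uqcr11 and Uqcrh were above the electron carriers Cyc1, Uqcrfs1 and Cycs, with means over 6 libraries of 358.5 and 322.1 FPKM, against 201.4, 143.0 and 99.6 FPKM.

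**Figure D2:**
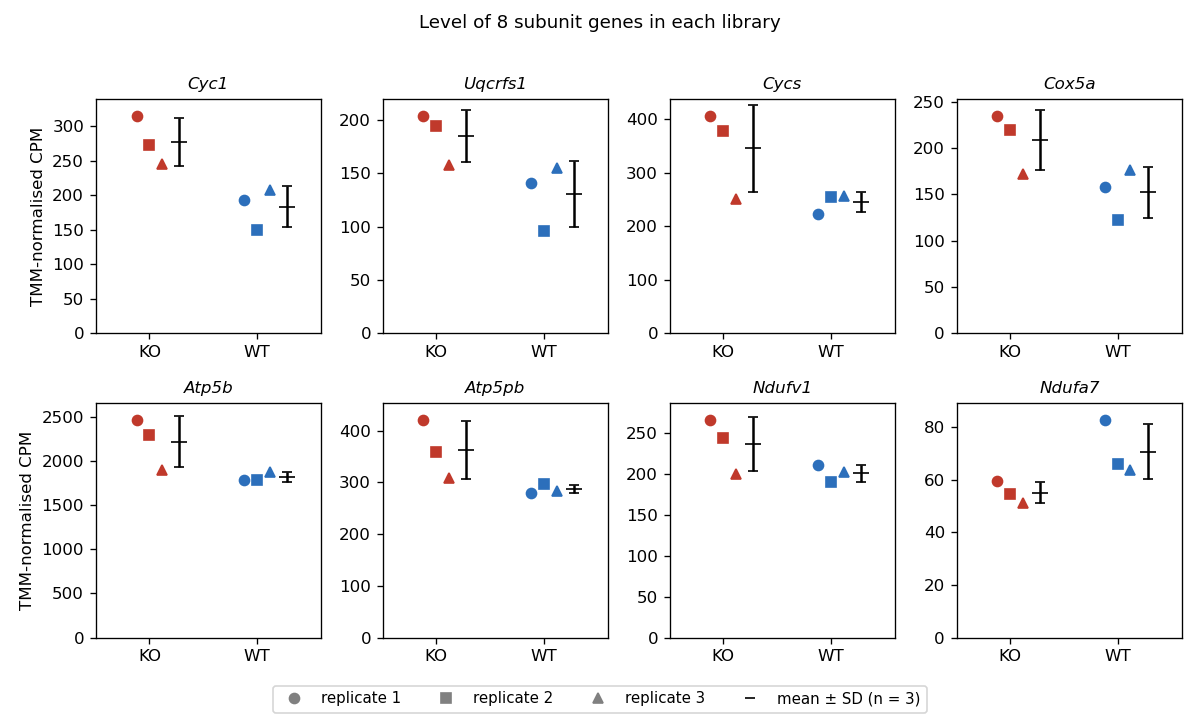
TMM-normalised CPM of 8 subunit genes in each library, KO (red, left) and WT (blue, right), with the replicate number as the marker shape and the mean ± SD of 3 libraries as a bar; each vertical axis starts at 0. KO replicates 1 and 2 lie above the WT libraries for 7 of the genes while KO replicate 3 is the lowest KO library in all 8, and for Ndufa7 all KO libraries (51.3 to 59.3 CPM) lie below all WT libraries (63.5 to 82.6 CPM).

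Complex IV reduces oxygen with subunits encoded by mitochondrial DNA, surrounded by small nuclear subunits. It was the 1 complex whose median lay below WT, at -0.04, with 5 of its 13 tested genes above WT. Without KO replicate 3 its median was 0.08, and no test of a difference between complexes was made. Cox5a, which binds on the matrix side, had 234.6, 219.7 and 172.0 CPM in KO libraries, against 158.2, 122.2 and 176.4 CPM in WT libraries. WT replicate 3 exceeded KO replicate 3, and the log2 fold change was 0.46 (SE 0.16, edgeR adjusted p = 0.31), or 0.32 without WT replicate 2. Its matrix-side neighbour Cox5b had a log2 fold change of 0.04 (SE 0.13). Cox7c, a single-span membrane subunit, had 53.3, 51.3 and 43.8 CPM in KO libraries and 65.5, 51.9 and 55.2 CPM in WT libraries. KO replicate 1 exceeded WT replicate 2, so the groups overlapped, and the log2 fold change was -0.22 (SE 0.14, edgeR adjusted p = 0.515). Ndufa4 had 205.3, 161.1 and 181.9 CPM in KO libraries and 234.9, 199.1 and 190.7 CPM in WT libraries, where KO replicate 1 exceeded 2 WT libraries (log2 fold change -0.19, SE 0.13, edgeR adjusted p = 0.525). Cox7b stood at 0.16 (SE 0.14, edgeR adjusted p = 0.648). Cox7a2l, a factor that joins complexes III and IV into supercomplexes, had 213.0, 228.6 and 223.7 CPM in KO libraries and 260.0, 261.4 and 203.4 CPM in WT libraries, with WT replicate 3 the lowest of all 6 (log2 fold change -0.12, SE 0.12).

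For the subunits with paired isoforms, the LSK libraries held mainly the widely expressed form in both genotypes, by FPKM. Cox6a1 reached 576.1 ± 75.9 FPKM in KO and 574.2 ± 11.98 FPKM in WT libraries, and Cox6a2, the isoform of heart and skeletal muscle, 10.98 ± 4.973 FPKM in KO and 11.95 ± 1.095 FPKM in WT libraries (SD, n = 3 each). Of the 13 tested complex IV genes of the symbol patterns, Cox6b1 had the highest mean over 6 libraries, at 699.4 FPKM. Ndufa4 was close to it, at 697.4 FPKM. Cox6b1 had 682.4 ± 94.7 FPKM in KO and 716.5 ± 63.2 FPKM in WT libraries. Its testis isoform Cox6b2 had 39.6 ± 7.52 FPKM in KO and 42.98 ± 2.204 FPKM in WT libraries. Cox7a2 had 142.6 ± 13.4 FPKM in KO and 159.0 ± 14.2 FPKM in WT libraries. Its muscle counterpart Cox7a1 held 8, 0 and 1 counts in KO libraries and 8, 7 and 3 counts in WT libraries. The testis isoform Cox7b2 held 0 counts in all KO libraries and 1, 0 and 0 in WT libraries, which allows up to 3 counts, or 0.106 to 0.114 CPM per library, for counting error only. Outside the symbol patterns, Cox4i1 stood at 810.4 ± 83.0 FPKM in KO and 802.4 ± 5.65 FPKM in WT libraries, and Cox4i2, the isoform known for hypoxia and lung, at 6.29 ± 2.70 FPKM in KO and 4.31 ± 2.08 FPKM in WT libraries. The smallest edgeR adjusted p among the tested genes of these pairs was 0.608, that of Cox4i2. Cox6b1, Cox6b2, Cox6a1, Cox6a2, Cox7a2 and Cox8a lay on the other side of WT under another scaling, without the filter or without 1 library.

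**Figure D3:**
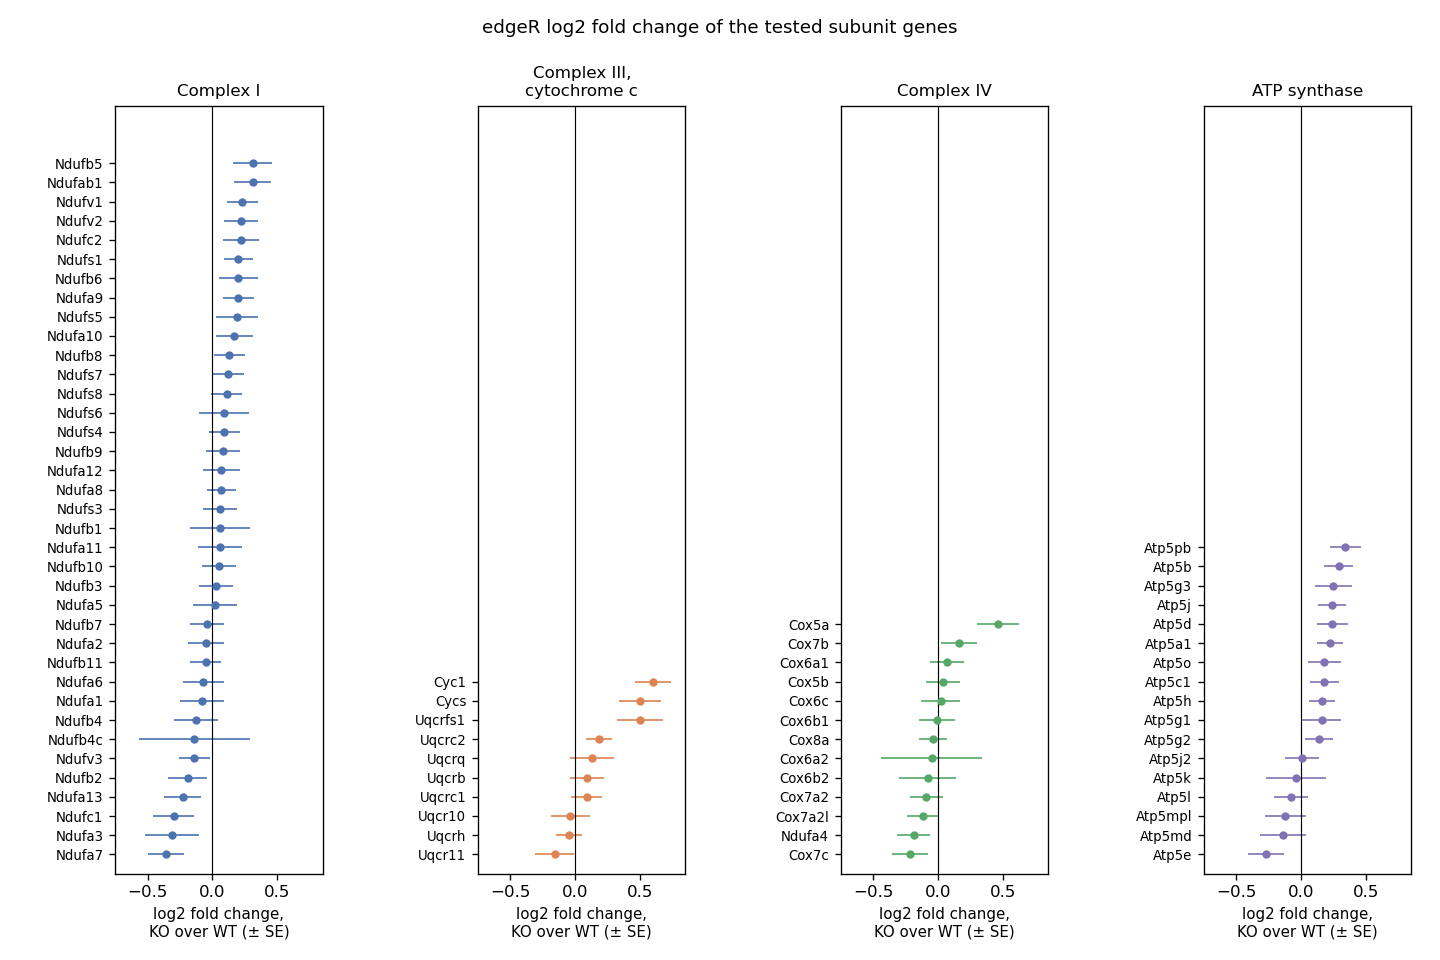
Log2 fold change of KO over WT (horizontal axis, edgeR) with its SE for the tested subunit genes, by complex and ordered by value; Ndufb4b at -1.59 lies outside the axis, and it and 1 other complex I gene are not drawn. The 4 largest values, Cyc1 at 0.60, Cycs and Uqcrfs1 at 0.50 and Cox5a at 0.46, belong to complex III with cytochrome c and to complex IV, while 12 of 17 ATP synthase genes lie above 0.

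The ATP synthase had a median of 0.16, with 12 of 17 genes above WT. The median was 0.08 without KO replicate 1 or with library size alone, and 0.26 without KO replicate 3. Its genes summed to 6745, 6031 and 5223 CPM in KO replicates 1, 2 and 3, against 5071, 5091 and 5252 CPM in the WT replicates. Replicates 1 and 2 of the KO group exceeded every WT library and replicate 3 lay within the WT range, giving means of 6000 ± 762 CPM in KO and 5138 ± 99.1 CPM in WT libraries (SD, n = 3 each). In CPM, genes with many counts weigh most. The deposited FPKM of the synthase genes summed to 7491, 6707 and 6124 in KO and 6441, 6416 and 6296 in WT libraries. By that measure KO replicate 3 lay below every WT library. The sums of complex I were 4222, 3845 and 3285 CPM in KO and 3720, 3444 and 3361 CPM in WT libraries. Those of complex III with cytochrome c were 2372, 2215 and 1769 CPM in KO and 1843, 1702 and 1853 CPM in WT libraries. Complex IV summed to 1780, 1625 and 1430 CPM in KO and 1719, 1519 and 1562 CPM in WT libraries. In all 4 sums of CPM KO replicate 1 was the highest and replicate 3 the lowest KO library, and replicate 3 lay below every WT library for complexes I and IV. The means of summed FPKM for complex I were 6032 in KO and 6080 in WT libraries. They were 2333 and 2261 for complex III with cytochrome c, and 4263 and 4467 for complex IV.

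**Figure D4:**
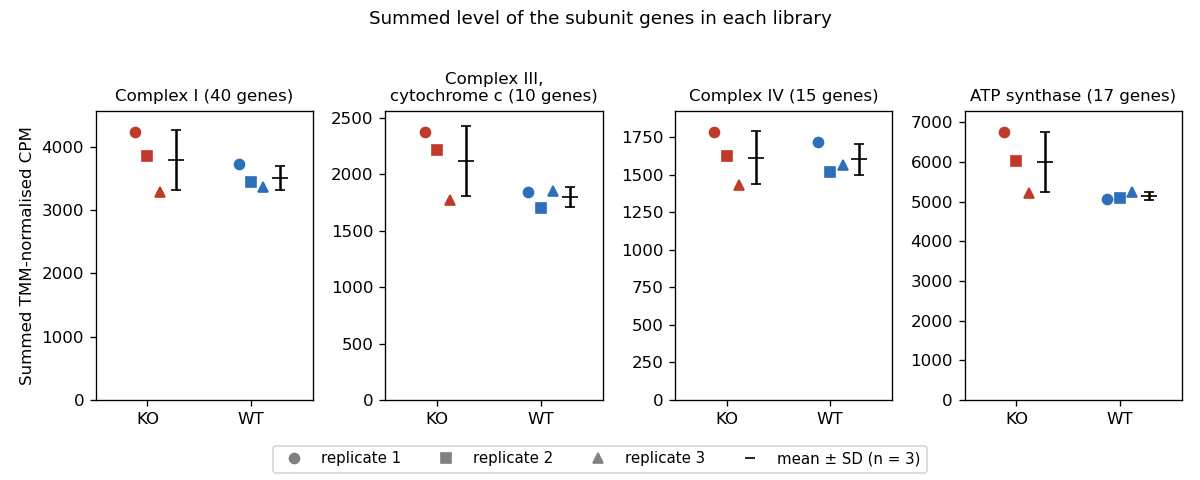
Summed TMM-normalised CPM of the genes of each complex in each library, KO (red, left) and WT (blue, right), with the replicate number as the marker shape and the mean ± SD of 3 libraries as a bar; each vertical axis starts at 0. The ATP synthase sums are 6745, 6031 and 5223 CPM in KO and 5071 to 5252 CPM in WT libraries, and in all 4 panels KO replicate 1 is the highest and KO replicate 3 the lowest KO library.

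Within the ATP synthase, the catalytic head, the ring and the peripheral stalk lay on the other side of WT from most of the small membrane subunits, a difference that was not tested. Of 12 genes of the head, ring and stalk, 11 lay above WT, in the full comparison and with every other scaling, filter or tool and each library left out. Atp5b, the catalytic beta subunit of the head and the highest of all 82 genes by FPKM, had 2463.2, 2296.9 and 1897.9 CPM in KO libraries, against 1792.2, 1789.6 and 1880.4 CPM in WT libraries. The groups did not overlap, though KO replicate 3 and WT replicate 3 were close, and the log2 fold change was 0.29 (SE 0.11, edgeR adjusted p = 0.33). Atp5a1, the alpha subunit that alternates with beta, had 1426.5, 1250.4 and 1143.4 CPM in KO libraries, against 1075.5, 1091.9 and 1108.0 CPM in WT libraries, also without overlap (0.22, SE 0.10, edgeR adjusted p = 0.375). The head contains both in equal number, and by FPKM Atp5b stood at 1299 ± 132 in KO and 1122 ± 18.2 in WT libraries, and Atp5a1 at 559.4 ± 47.9 in KO and 505.1 ± 6.42 in WT libraries. The central rotor subunits gamma and delta, Atp5c1 and Atp5d, had log2 fold changes of 0.18 (SE 0.11) and 0.24 (SE 0.12). Atp5e, the small epsilon subunit of the same rotor, had 58.7, 48.0 and 47.0 CPM in KO libraries, against 64.9, 53.6 and 66.4 CPM in WT libraries. It was the 1 gene of the head below WT, with KO replicate 1 inside the WT range (-0.27, SE 0.14, edgeR adjusted p = 0.433).

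The stalk holds the head still against the turning ring. Its subunit b, Atp5pb, had 419.9, 358.1 and 308.3 CPM in KO libraries, against 280.4, 296.4 and 284.1 CPM in WT libraries. All KO libraries lay above all WT libraries, and the log2 fold change of 0.34 (SE 0.12, edgeR adjusted p = 0.313) was the largest of the ATP synthase. Without KO replicate 1, Atp5pb stood at 0.22, and the head subunits Atp5b and Atp5a1 at 0.21 and 0.13. Atp5j, coupling factor 6, had 198.1, 170.7 and 166.7 CPM in KO libraries, against 158.6, 136.9 and 157.2 CPM in WT libraries, without overlap (0.24, SE 0.11, edgeR adjusted p = 0.381). Atp5o, which links the stalk to the top of the head, and Atp5h, subunit d, stood at 0.18 (SE 0.13) and 0.16 (SE 0.10). The 3 genes Atp5g1, Atp5g2 and Atp5g3 encode the same ring subunit c and differ in the part removed on import. Atp5g2 had 181.2, 158.1 and 159.4 CPM in KO libraries, against 142.5, 153.3 and 156.1 CPM in WT libraries, without overlap (0.14, SE 0.11, edgeR adjusted p = 0.565). Atp5g3 stood at 0.25 (SE 0.14) and Atp5g1 at 0.16 (SE 0.15), both with KO replicate 3 inside or below the WT range. By FPKM, Atp5g1 led the ring genes with 449.7 ± 79.5 in KO and 423.1 ± 34.5 in WT libraries, above Atp5g2 with 377.3 ± 22.8 in KO and 357.6 ± 18.6 in WT libraries and Atp5g3 with 174.4 ± 28.4 in KO and 151.8 ± 8.84 in WT libraries.

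Of the 5 small membrane subunits Atp5j2, Atp5k, Atp5l, Atp5md and Atp5mpl, which help to hold the synthase in rows of dimers, 1 lay above WT and 4 below, with a median of -0.08. Atp5md had 33.6, 27.2 and 25.8 CPM in KO libraries and 38.1, 28.5 and 28.6 CPM in WT libraries, where only KO replicate 1 exceeded any WT library (-0.14, SE 0.18, edgeR adjusted p = 0.755). Atp5k was the lowest synthase gene by FPKM, with 90.5 ± 11.3 in KO and 95.4 ± 15.0 in WT libraries (log2 fold change -0.04, SE 0.23). All 5 lay within 1 SE of 0, and from 0 to 3 of them lay above WT under the other settings. Atpif1, the inhibitor that binds the head when the proton gradient falls, averaged 196.6 ± 15.3 CPM in KO and 196.5 ± 28.6 CPM in WT libraries (SD, n = 3 each).

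The promoters of the ATP synthase genes Atp5pb and Atp5b, with the largest values of the stalk and head, are shown beside that of Atp5e, the head gene below WT. The windows and the motifs are those used for Cycs. Capitals mark a YY1 core on the reverse strand that begins 3 bases before the Atp5pb start. In Atp5b they mark 5 CCAAT boxes, which begin 222, 188, 164, 147 and 75 bases before the start, the one at 164 on the reverse strand. In Atp5e they mark an ETS core on the reverse strand 102 bases before the start, and CCAAT boxes 84 and 55 bases before it, of which the second is reversed.
Atp5pb promoter, chr3:105959234-105959513, minus strand: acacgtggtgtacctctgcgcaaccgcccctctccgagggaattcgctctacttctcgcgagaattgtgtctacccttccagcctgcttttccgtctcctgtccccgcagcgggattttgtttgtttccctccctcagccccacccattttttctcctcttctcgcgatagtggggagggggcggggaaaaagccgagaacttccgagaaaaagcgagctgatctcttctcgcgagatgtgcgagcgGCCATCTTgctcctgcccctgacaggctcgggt
Atp5b promoter, chr10:128083057-128083336, plus strand: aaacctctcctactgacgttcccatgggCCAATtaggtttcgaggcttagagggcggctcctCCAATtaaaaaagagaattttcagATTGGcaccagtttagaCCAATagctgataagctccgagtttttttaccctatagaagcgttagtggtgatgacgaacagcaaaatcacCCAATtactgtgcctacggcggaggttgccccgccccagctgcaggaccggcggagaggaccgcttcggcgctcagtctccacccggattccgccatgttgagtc
Atp5e promoter, chr2:174464072-174464351, minus strand: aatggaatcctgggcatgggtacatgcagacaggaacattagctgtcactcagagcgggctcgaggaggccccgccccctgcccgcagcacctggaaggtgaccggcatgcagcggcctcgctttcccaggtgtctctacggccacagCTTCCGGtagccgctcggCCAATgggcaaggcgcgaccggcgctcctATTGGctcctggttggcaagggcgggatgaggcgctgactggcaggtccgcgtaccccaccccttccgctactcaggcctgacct
The 3 genes held different motifs of those searched, and only the CCAAT box was shared by 2 of them. It is in a promoter of 41.1% of all genes.

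Across all 79 genes, the log2 fold change went with the gene's implied length. The length was taken from the ratio of each gene's deposited counts to its FPKM. It may differ from the length of the transcript. The classes of 0.5 and 1 kb were set after the values had been seen. All 16 genes of 1 kb or more lay above WT, at a median of 0.21, as did 15 of 20 genes between 0.5 and 1 kb, with a median of 0.12. Of 43 genes under 0.5 kb, 18 lay above WT and the median was -0.04. Spearman's rho between length and log2 fold change was 0.65 over the 79 genes and 0.52 over the 63 genes under 1 kb. The genes share 6 libraries and are not independent, and rho between mean CPM and log2 fold change was nearly the same, 0.64, so length and level could not be told apart. The longest class held Cyc1, Uqcrfs1, Cycs, Atp5a1, Atp5b and 4 of the 7 core genes of complex I, and the shortest held all 5 small membrane subunits of the synthase, Atp5e, Ndufc1 and Ndufa7. The shortest class also held genes above WT, among them Cox5a at 0.46, Ndufab1 at 0.31 and Atp5j at 0.24. Among the 12686 other genes with a length, rho was -0.14, but these also held genes longer than any subunit gene. The 104 other genes under 0.3 kb had a median of -0.16, with 19 above WT. Those from 0.3 to 0.5 kb had a median of -0.03, and those from 0.5 to 1 kb one of 0.07. From 1 to 2 kb the median was 0.05, from 2 to 3 kb 0.01, from 3 to 5 kb -0.01 and over 5 kb -0.13. With KO replicate 1 left out, 14 of the 16 longest genes and 10 of the 43 shortest lay above WT, and with KO replicate 3 left out, 16 and 28. The cause of this relation was not tested.

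**Figure D5:**
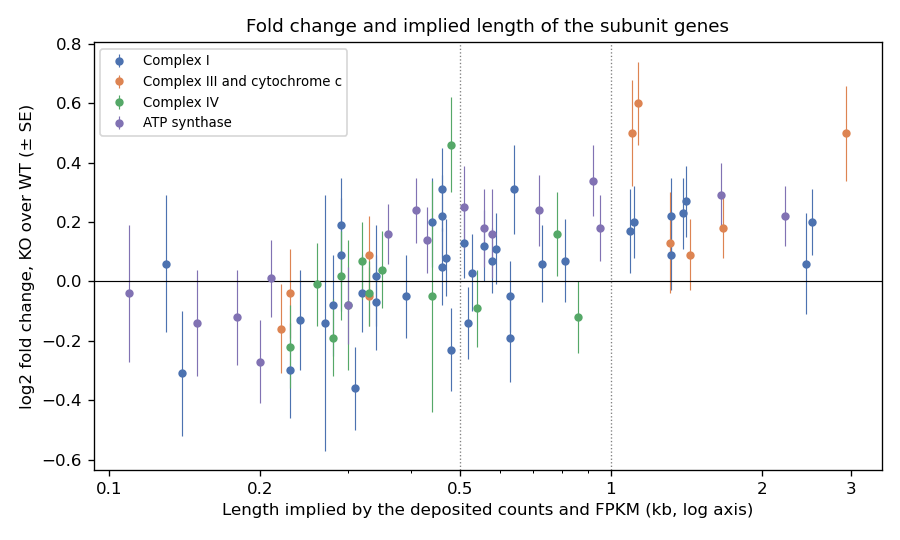
Log2 fold change of KO over WT with its SE (vertical axis) against the length implied by the deposited counts and FPKM (kb, log axis) for the tested subunit genes, coloured by complex, with dotted lines at 0.5 and 1 kb; Ndufb4b (0.26 kb, -1.59) lies outside the axis. All 16 genes of 1 kb or more lie above 0, while 18 of the 43 genes under 0.5 kb do.

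Other genes of the pathway were read from lists of complex II, Cox4i1 with Cox4i2, assembly factors, regulators, coenzyme Q synthesis and carriers. Of the 100 tested, 0 passed the edgeR test. Of these, 68 lay above WT and 32 below, at a median of 0.08, and 7 higher and 3 lower had an unadjusted p under 0.05, beside 7.24% and 6.15% of all genes. Complex II, the succinate dehydrogenase, had 4 of 4 genes above WT and a median of 0.14. Its membrane anchor Sdhd had 315.0, 270.7 and 231.9 CPM in KO libraries and 235.0, 228.4 and 202.0 CPM in WT libraries, with KO replicate 3 below WT replicate 1 (0.30, SE 0.13, edgeR adjusted p = 0.358). Of 53 assembly factors tested, 35 lay above WT, with a median of 0.07. Hccs, the lyase that attaches heme to cytochrome c and cytochrome c1, had 53.0, 55.5 and 37.4 CPM in KO libraries, against 29.1, 19.9 and 31.1 CPM in WT libraries. The groups did not overlap, and its log2 fold change of 0.86 (SE 0.21, edgeR adjusted p = 0.298; DESeq2 adjusted p = 0.0198) exceeded those of Cyc1 and Cycs, the genes of its substrates. Cox11, which delivers copper to complex IV, had 16.0, 14.1 and 8.92 CPM in KO libraries, against 7.79, 3.71 and 7.99 CPM in WT libraries, without overlap (1.00, SE 0.34, edgeR adjusted p = 0.31). Ndufaf6, an assembly factor of complex I, had 35.2, 30.6 and 26.9 CPM in KO libraries, against 23.1, 10.8 and 23.2 CPM in WT libraries (0.70, SE 0.27, edgeR adjusted p = 0.337).

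Lrpprc, which stabilizes the transcripts of mitochondrial DNA, had 148.5, 166.4 and 117.3 CPM in KO libraries, against 114.5, 64.1 and 103.8 CPM in WT libraries (log2 fold change 0.61, SE 0.21, edgeR adjusted p = 0.309). WT replicate 2 was the lowest of all 6 libraries for Lrpprc, Ndufaf6, Cox11 and Hccs, as it was for Cyc1, Uqcrfs1 and Cox5a. Without it, Lrpprc stood at 0.40, Ndufaf6 at 0.42, Cox11 at 0.72 and Hccs at 0.69. Among the 18 regulators and genes of mitochondrial DNA expression, 9 lay above and 9 below WT, with a median of 0.00. Nrf1 and Gabpa, factors known to bind respiratory chain promoters, had log2 fold changes of 0.04 (SE 0.10) and 0.02 (SE 0.12). Ppargc1a, their coactivator, was low, at 3.00 ± 1.25 CPM in KO and 4.10 ± 0.84 CPM in WT libraries (SD, n = 3 each). Yy1, the factor of the YY1 core, had 33.3, 31.6 and 29.6 CPM in KO libraries, against 43.0, 40.7 and 36.1 CPM in WT libraries, without overlap (-0.34, SE 0.14, edgeR adjusted p = 0.349).

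Coenzyme Q synthesis had 9 of 13 genes above WT and a median of 0.12. Pdss1, which makes the side chain of coenzyme Q, had 43.5, 38.2 and 31.4 CPM in KO libraries, against 27.8, 27.8 and 28.1 CPM in WT libraries (0.43, SE 0.16, edgeR adjusted p = 0.324), whereas Coq8a stood at -0.46 (SE 0.21, edgeR adjusted p = 0.371). Carriers and other entry points had 9 of 10 genes above WT and a median of 0.16. Slc25a3, the phosphate carrier that feeds the ATP synthase, had 502.2, 441.6 and 373.7 CPM in KO libraries, against 323.7, 348.6 and 347.9 CPM in WT libraries. All KO libraries lay above all WT libraries (0.37, SE 0.12, edgeR adjusted p = 0.307). Gpd2, the glycerol phosphate dehydrogenase that delivers electrons to coenzyme Q, had 87.7, 90.2 and 102.0 CPM in KO libraries, against 115.4, 121.6 and 116.1 CPM in WT libraries, also without overlap but in the other direction (-0.34, SE 0.11, edgeR adjusted p = 0.307).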

How the data were processed

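RNA of LSK cells was sequenced in 3 HDAC6 knockout and 3 wild-type samples, grouped by the genotype in the labels. RNA was extracted with Trizol, per the labels' protocols. GRCm39, featureCounts 2.0.3, DESeq2, SAMtools 1.13 and HISAT2 2.2.1 are named, with no roles, in the submitters' processing notes. Not given in the sources used here are the annotation, the strandedness and how reads shared between copies or overlapping genes were counted, and many subunit genes have processed pseudogenes that could take or lend reads.

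For each gene symbol and library the authors deposited an estimated count and FPKM, per the file headers. Fractional values made up 19.6% to 20.9% of each library's deposited estimated counts, which were rounded for testing. Chi-square over degrees of freedom between pairs of libraries was 25.8 to 91.4, far above sampling noise, so each library counted as 1 sample. The quasi-likelihood test of edgeR 4.0.16 (R 4.3.3, robust dispersion) compared knockout with WT, after filterByExpr (minimum count 10) and TMM normalization (factors 0.952 to 1.034), with Benjamini-Hochberg adjustment over all 12875 genes and a threshold of 0.05. Directions, medians and non-overlapping groups are descriptions without a test.

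The members and lists were chosen with earlier results of these data known. The genes named by rule were Hdac6, per complex the 4 with the smallest p and the highest and lowest by FPKM, the complex I core, isoform pairs, ring genes, Atpif1 and the 2 with the smallest p of each other list, of which 1 is not reported here. Other genes named, among them Nrf1, Gabpa, Ppargc1a and the remaining subunits, were chosen after their values were seen. Alternatives were RLE, upper-quartile and library-size scaling, no filter and a filter of 5 CPM in 3 libraries, DESeq2 1.42.0, limma-voom and limma 3.58.1 on log2(FPKM + 1) and log2(FPKM + 0.1) with at least 1 FPKM in 3 libraries, the replicate number as a block, and each library left out. The test was also run on simulated counts. These had the same dispersion for every gene and larger fold changes than most subunit genes showed. They therefore do not show its power for these genes. The limits of a count of 0, 3 counts, cover counting error only.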

Additional observations from a re-analysis of the deposited data

How the results depend on the processing

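With DESeq2, 181 genes of the whole table and 1 subunit gene were called, against 1 and 0 with edgeR. With each library left out in turn, 1 to 44 genes were called in all (4 without HDAC6 knockout replicate 1, 44 without knockout replicate 3). Of the subunit genes, 0 to 1 were called, and 11 to 41 had groups that did not overlap. Without knockout replicates 1, 2 and 3, the non-overlapping subunit genes numbered 20 (25.3%, beside 24.6% of all genes), 11 (13.9%, beside 23.4%) and 41 (51.9%, beside 40.3%). Without WT replicates 1, 2 and 3, they numbered 18 (22.8%, beside 29.3%), 16 (20.25%, beside 26.8%) and 17 (21.5%, beside 34.6%). With the replicate number as a block, the smallest adjusted p of the subunit genes was 0.456 and their median log2 fold change 0.06. The deviations of same-numbered libraries from their group means correlated at 0.0335, -0.0395 and -0.122. Those of differently numbered libraries correlated at -0.0717 to 0.111. With 3 libraries per group, these values cannot decide whether the numbers pair the samples. Of 591 values of 37 named subunit genes under the alternatives, 570 kept direction and side of the threshold, 2 newly passed it (Cyc1 with DESeq2, Cycs without knockout replicate 3) and 19 reversed. Cox6b1 reversed to 0.0055 with no filter. Ndufs3 was -0.02 and Cox6a1 -0.01 with library size alone, and with either FPKM pseudocount Ndufs3 was -0.02 and Cox6a1 -0.0036. Atpif1, at 0.0011, was -0.05 with upper-quartile scaling, -0.08 with library size alone, -0.01 with the stricter filter and -0.06 with either FPKM pseudocount. With 1 library left out, log2 fold changes ran from -0.02 to 0.30 for Uqcrq, -0.13 to 0.11 for Cox6b1, -0.42 to 0.27 for Cox6a2, -0.13 to 0.09 for Atp5k, -0.06 to 0.18 for Ndufs3, -0.03 to 0.19 for Cox6a1, -0.17 to 0.05 for Cox6b2, -0.17 to 0.0008 for Cox7a2, -0.13 to 0.04 for Cox8a and -0.07 to 0.13 for Atpif1. The cause of these reversals was not tested. Subunit genes above WT numbered 36 to 61 over all these settings. Cox7a1, Cox7b2, Ndufs6b and Ndufb4b had too few counts for a precise value.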

Other observations

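Among short genes outside the respiratory chain, 85 of the 104 with an implied length under 0.3 kb lay below WT, and for 30 of them all KO libraries lay below all WT libraries, beside 9.7% of all genes tested. Of the 2037 genes over 5 kb, 682 lay above WT. The cause of this relation with length was not tested.

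The ADP/ATP carriers, which exchange the product of the ATP synthase across the inner membrane, followed the order of the KO libraries seen for the subunit genes. Slc25a5 had 1334, 1205 and 880.0 CPM in KO replicates 1, 2 and 3, against 922.4, 982.7 and 940.9 CPM in the WT replicates, so that KO replicate 3 was the lowest of the 6 (log2 fold change 0.26, SE 0.14, edgeR adjusted p = 0.423). Slc25a4 had 247.4, 224.4 and 188.2 CPM in KO replicates 1, 2 and 3, against 207.2, 203.9 and 192.6 CPM in the WT replicates, again with KO replicate 3 the lowest (0.13, SE 0.12, edgeR adjusted p = 0.647). Among assembly factors of complex IV, Cox14, Cox17, Cox20 and Pet100 lay below WT in all KO libraries without overlap, at log2 fold changes of -0.21, -0.21, -0.30 and -0.43, and Cox11 and Coa8 lay above it without overlap, at 1.00 and 0.29. These were 6 of 24 tested, or 25.0%, beside 18.6% of all genes, and none passed the edgeR test. These genes were chosen after their values were seen.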
